A study of Xenopus laevis with 6 samples.

Results

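The regions described here are stretches of chromatin that were listed as accessible in Xenopus laevis ectoderm at late gastrula and that lay far from anything listed at early gastrula. They are the distinct stage 12 regions on the 18 assembled chromosomes whose nearest stage 10 region on the same chromosome was more than 20 kb away, measured from edge to edge. There were 8873 of them, carrying 21264 summits. They made up 16.1% of the 55045 stage 12 regions on chromosomes (95% Wilson interval 15.8% to 16.4%), and 35.4% of the 25087 that overlapped no stage 10 region. The reverse rule found 2244 of the 40211 stage 10 regions on chromosomes, or 5.58%, more than 20 kb from any stage 12 region. Because the positions in both lists chose the regions, these shares are a description and nothing is read from them.

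The samples were ectodermal explants, or animal caps, cut from Xenopus laevis blastulae at stage 9. They were kept in culture until gastrulation began, at stage 10, or until it was nearly over, at stage 12. The labels name no genotype, transgene or added agent. Each stage had 3 ATAC-seq libraries of 2 explants each, so a library pools the tissue of at most 2 embryos. The 3 libraries of a stage share 1 deposited list, so no value below belongs to a single library, no spread between replicates exists, and no test between stages was run. Whether the labelled tissue was pure ectoderm could not be checked, since the lists hold no expression.

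In ATAC-seq the transposase Tn5 inserts adapters into open DNA, and reads pile up over promoters, enhancers and other sequence that is free of nucleosomes. Genes of the embryo are switched on at the mid-blastula transition, before gastrulation, and enhancers go on opening as transcription factors reach their sites. Cells of the animal cap are pluripotent in the blastula and, when cultured without inducing signals, become epidermis during and after gastrulation. Accessible regions that lie far from promoters are often enhancers, but no annotation of the matching genome build was used here, so nothing is said of the genes, features or sequence at any region. The submitters' processing notes name the build xenLae2, and positions below are given as 1-based coordinates of that build.

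The lists differ in depth. The read pileup at a summit, a whole number, and the background around it were solved from the authors' fold enrichment and −log10 p. The lowest common background, the floor, was 2.204 reads at stage 10 and 4.701 reads at stage 12, a ratio of 2.13. This ratio estimates how much deeper the combined stage 12 list is, if reads were extended alike at both stages. Stage 12 was then scaled down by that ratio, and both lists were held to 1 limit on −log10 p. Under this setting 7033 regions met the rule, 14.7% of the 47779 stage 12 regions left. The limit also cut the stage 10 list from 40211 to 38200 regions, so the 7033 need not all be among the 8873. How deeply each library was sequenced is unknown.

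The 18 chromosomes spanned 2507 Mb up to their last listed region, and 1664 Mb of this, or 66.4%, lay more than 20 kb from any stage 10 region. This far territory is where the 8873 regions could fall. They covered 4.89 Mb, 0.294% of it. Their density was 5.33 regions per Mb of far territory, against 54.8 other stage 12 regions per Mb of the remaining 843 Mb, a 10.3-fold difference. The near territory was drawn around stage 10 regions, so the rule itself enters that contrast. Assembly gaps are not in the files and count as territory.

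The density of stage 12 regions went on falling beyond the limit. Between 10 and 20 kb from a stage 10 region there were 12.96 stage 12 regions per Mb. Between 20 and 30 kb there were 9.98 per Mb (2431 regions), and between 50 and 100 kb there were 4.87 per Mb (2280 regions). Between 200 and 500 kb there were 1.86 per Mb (405 regions), and beyond 500 kb there were 1.93 per Mb (53 regions). The limit of 20 kb therefore fell within a smooth decline, and no step in density marked it. The median distance to stage 10 was 43.5 kb, with an interquartile range of 28.9 to 76.9 kb.

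**Figure D1:**
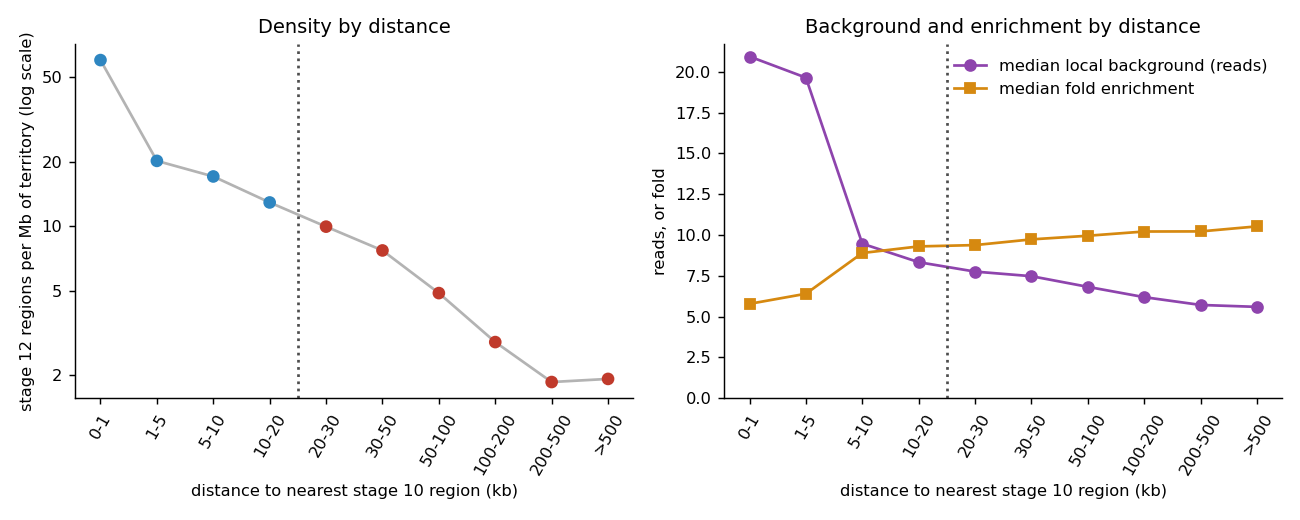
Left, stage 12 regions that overlap no stage 10 region, per Mb of sequence at the same distance, on a log scale. Right, their median local background in reads and their median fold enrichment. The x axis is the distance to the nearest stage 10 region in kb, and the dotted line marks 20 kb. Density falls from 60.3 regions per Mb within 1 kb to 1.86 per Mb at 200 to 500 kb, background falls from 20.9 to 5.71 reads, and fold enrichment rises from 5.78 to 10.2.

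The regions closest to the limit are given as a description. Just inside it were chromosome 4L, 31354127 to 31354786, at 20005 bp, with a fold enrichment of 19.5, and chromosome 3S, 95594076 to 95594634, at 20008 bp, with a fold enrichment of 16.0. Just outside it were chromosome 5L, 137053566 to 137054032, at 20000 bp, with a fold enrichment of 8.72, and chromosome 4L, 81952406 to 81953156, at 19999 bp, with a fold enrichment of 15.6. All 4 had the top score of 1000. More widely, the top score was reached by 56.9% of regions at 10 to 20 kb and by 54.1% at 20 to 30 kb.

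The far regions were of intermediate width. Their median width was 512 bp, with an interquartile range of 337 to 712 bp and a full range of 73 to 2518 bp. The 16214 stage 12 regions that overlapped no stage 10 region but lay within 20 kb of one had a median of 392 bp (247 to 586 bp). The 29958 that overlapped a stage 10 region had a median of 719 bp (459 to 976 bp). The far regions were wider than the near ones on 18 of 18 chromosomes and narrower than the overlapping ones on 18 of 18. Against all 46172 other stage 12 regions, whose median was 585 bp, they were narrower on 18 of 18. The near regions were not uniform. Their median width rose from 275 bp within 1 kb of stage 10 to 480 bp at 10 to 20 kb. Far regions at 20 to 30 kb had a median of 500 bp, so little changed across the limit. Regions are not replicates of a condition, so these differences carry no test.

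Most far regions held more than 1 summit. A summit is a local maximum of the pileup, and a wide element or several adjacent sites give several. There was 1 summit in 22.9% of far regions (Wilson interval 22.0% to 23.8%), 2 in 38.6%, 3 in 22.8% and 4 or more in 15.8%. The share with 1 summit was 34.2% (33.5% to 35.0%) among near regions and 12.8% (12.4% to 13.1%) among overlapping ones. Far regions came between the other groups in this measure on 18 of 18 chromosomes. The high near share came from regions close to stage 10, with 52.9% within 1000 bp and 31.8% at 1000 to 5000 bp. Near regions at 10000 to 20000 bp had 1 summit in 26.3%, beside 25.4% of far regions at 20000 to 30000 bp. Little changed in this share across the limit. Neighbouring summits within a far region were a median of 151 bp apart (112 to 213 bp), against 143 bp in near and 176 bp in overlapping regions. Far regions with 1 summit had a median width of 268 bp, against 219 bp in near and 226 bp in overlapping regions of 1 summit. With 4 summits the order was different, at 773.5 bp in far, 727 bp in near and 819 bp in overlapping regions. In far regions of 1 summit, the summit lay a median of 27.7% of the half-width from the centre.

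**Figure D2:**
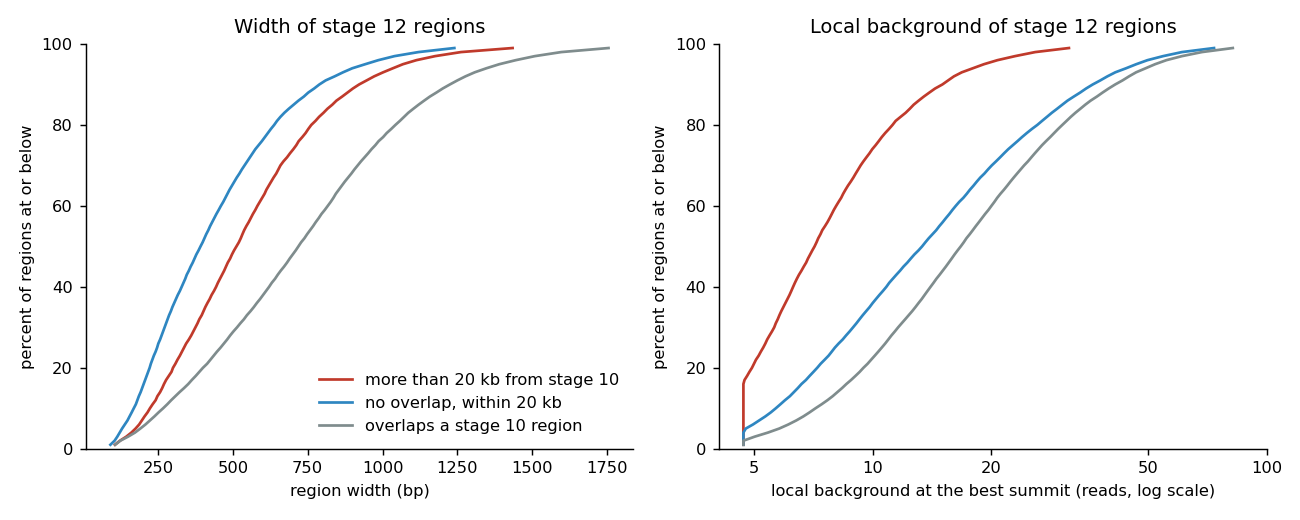
Cumulative percent of stage 12 regions by width in bp (left) and by local background in reads on a log scale (right), for regions more than 20 kb from stage 10, regions without overlap within 20 kb, and regions overlapping stage 10. Lines run from the 1st to the 99th percentile. Median widths are 512, 392 and 719 bp, and median backgrounds are 7.12, 13.4 and 16.7 reads.

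The far regions had few reads over a quiet surrounding. The median pileup at the best summit was 81 reads, with an interquartile range of 62 to 114, against 108 in near and 220 in overlapping regions. The median local background was 7.12 reads, against 13.4 in near and 16.7 in overlapping regions. It was at the floor of the list in 16.6% of far regions, 4.71% of near ones and 2.26% of overlapping ones. Both pileup and background were lower in far than in near regions on 18 of 18 chromosomes. Background fell with distance from stage 10, from 19.6 reads at 1 to 5 kb to 9.46 reads at 5 to 10 kb and 7.75 reads at 20 to 30 kb. Median pileup was 128 reads at 1 to 5 kb, 87 at 10 to 20 kb and 84 at 20 to 30 kb. Far regions also had fewer stage 12 regions near them, with another within 20 kb of 51.5%, against 97.1% of near and 77.6% of overlapping regions. The rule enters this contrast, since a stage 12 region within 20 kb of a far region can hardly overlap a stage 10 region. The part of such neighbours in the background was not tested.

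The authors' fold enrichment, which sets the pileup against this background, was higher in far than in near regions. Its median was 9.81 in far regions (interquartile range 8.07 to 12.2), 7.58 in near and 12.7 in overlapping regions. The far regions were above the near ones on 18 of 18 chromosomes. The low near median came from regions close to stage 10, with 5.78 within 1 kb and 6.40 at 1 to 5 kb. Near regions at 10 to 20 kb had 9.30, beside 9.38 in far regions at 20 to 30 kb. In −log10 p, by contrast, far and near regions had close medians of 53.6 and 54.1, with far regions higher on 7 of 18 chromosomes. The overlapping regions had a median of 157. The score, which runs from 540 to 1000 in this list, reached its top value in 54.9% of far, 55.6% of near and 90.2% of overlapping regions.

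Far regions, like near ones, sat mainly in the lower ranks of the stage 12 list. When the list was divided into 10 bands of equal number by −log10 p, 78.4% of far regions fell into the 5 lowest bands. The lowest band held 1741 of the 8873 far regions, and the highest, of 5505 regions, held 33. Of the 16214 near regions, 2876 were in the lowest band and 84 in the highest. Of the 29958 overlapping regions, 888 were in the lowest and 5388 in the highest. Rank and width are related, so the groups were also compared within bands. There the far regions were wider than the near ones in 9 of 10 bands and wider than the overlapping ones in 6 of 10, all of these in the 6 lowest bands. Within bands the near regions were not split by distance. The part of those close to stage 10 in the contrasts with near regions was not tested. In the lowest band the medians were 403 bp for far, 299 bp for near and 346.5 bp for overlapping regions. In the 9th band they were 694.5, 634 and 845.5 bp.

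The overall order between far and overlapping regions was thus turned around among regions of low and middle rank. The share with 1 summit went the same way. In the lowest band it was 40.9% in far, 53.2% in near and 47.97% in overlapping regions, and far regions had the lowest share in each of the 8 lowest bands. Fold enrichment was higher in far than in near regions in 10 of 10 bands and higher than in overlapping regions in 9 of 10. At a given −log10 p a lower background goes with a higher fold by construction, so the fold is no separate observation there. Background was lower in far regions than in both other groups in 10 of 10 bands. In the lowest band their median pileup was 52 reads, against 67 in near and 69 in overlapping regions. The part of this lower background and pileup in the widths and summit counts within bands was not tested.

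**Figure D3:**
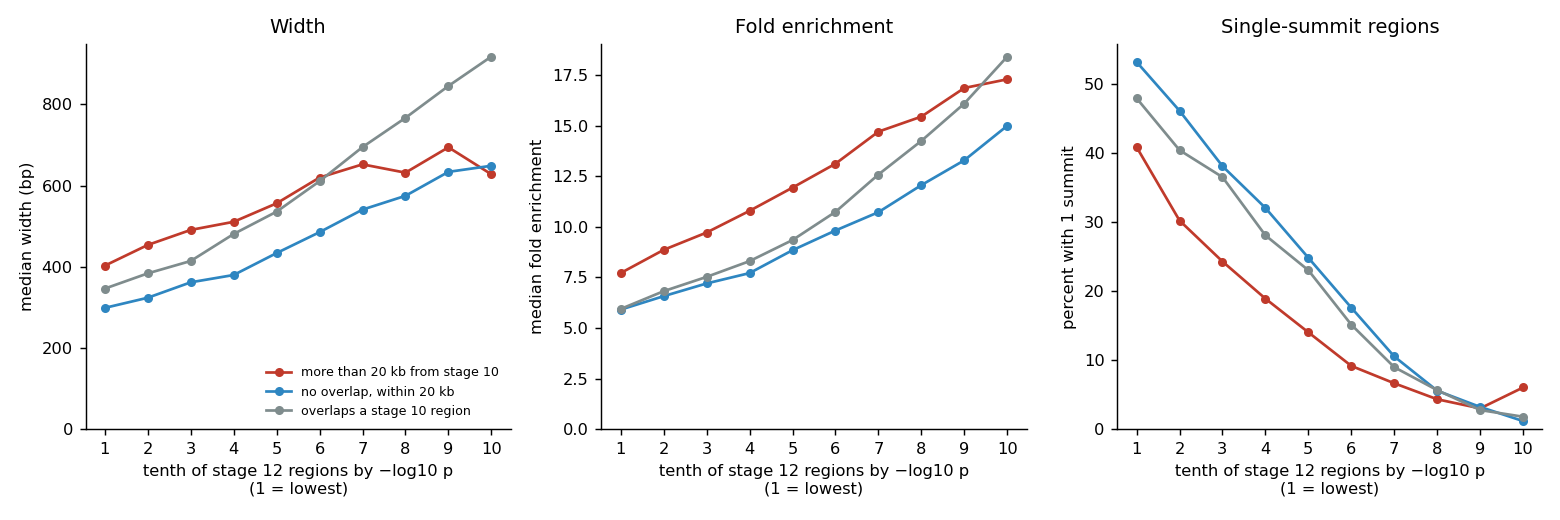
Median width in bp, median fold enrichment and percent of regions with 1 summit in 10 bands of stage 12 regions by −log10 p, from the lowest (1) to the highest (10), for the far, near and overlapping regions. Far regions are the widest of the groups in the 6 lowest bands, from 403 to 620 bp, and the overlapping regions are the widest in the 4 highest.

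Once past the limit, the members varied little with distance in width and in the share at the top score. Median width was 500 bp at 20 to 30 kb (2431 regions), 523.5 bp at 50 to 100 kb (2280) and 482 bp at 200 to 500 kb (405). Median fold enrichment rose from 9.38 to 9.95 and 10.2 over the same bands. Median pileup fell from 84 to 80 and 72 reads, and median background fell from 7.75 to 6.82 and 5.71 reads. The share at the top score was 54.1%, 55.0% and 51.9%.

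The far region with the highest −log10 p, at 528, was on chromosome 2L, 29714987 to 29715863. It had 2 summits and 517 reads over a background of 19.0, or 25.9-fold, and lay 30.3 kb from the nearest stage 10 region. The next was chromosome 9_10L, 114204044 to 114204693, with a fold enrichment of 16.4, a pileup of 641 and a background of 38.1. Another far region lay only 123 bp from it. The third was chromosome 3S, 60834153 to 60834837, with a fold enrichment of 19.6, and the fourth was chromosome 2L, 79291216 to 79291843, with a fold enrichment of 27.3 and 47.4 kb to the nearest stage 12 region of any kind.

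The others of the first 10 were on chromosomes 7L, 7S, 1S, 6L, 1S and 5S. Their positions were 7L, 82476374 to 82476999, 7S, 58219255 to 58219884, and 1S, 24749021 to 24750004. The remaining ones were 6L, 20877482 to 20877878, 1S, 158981571 to 158982260, and 5S, 129331963 to 129332267. Fold enrichments of these 6 were 18.7, 17.0, 22.4, 16.1, 12.0 and 19.5. The first 10 had pileups of 415 to 641 reads, and all 10 had backgrounds above the floor, from 14.3 to 46.8 reads. In 5 of the 10 another stage 12 region lay within 1 kb, against 19.5% of all far regions. The region at 24749021 on 1S, with 6 summits and a width of 984 bp, was 109.9 kb from stage 10, farther than the other 9. In the whole stage 12 list on chromosomes, 1090 regions had a −log10 p at or above that of the first, itself included.

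The most remote regions lay about 1 Mb from anything listed at stage 10. On chromosome 4S the region from 35687610 to 35688195 was 1023 kb away, with 3 summits, a fold enrichment of 13.3 and a pileup of 81 reads over 5.15. A pair of regions on 4S, 36017368 to 36017664 and 36021064 to 36021621, were 1019 and 1015 kb away and only 3.40 kb apart. Their fold enrichments were 7.53 and 13.1. On chromosome 1S the region from 7689538 to 7689938 was 934 kb away, with a fold enrichment of 21.7. On chromosome 3S the region from 28160445 to 28161561 was 916 kb away, with 7 summits, a fold enrichment of 15.9 and 841 kb to the nearest other stage 12 region. Of these 5, 4 had the top score. Among all 53 far regions beyond 500 kb the share was 49.1%, against 54.9% of all far regions.

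The widest and the most divided far regions ranked low. The widest, chromosome 5L, 136010203 to 136012720, was 2518 bp long with 6 summits, a fold enrichment of 6.42 and a score of 581. The one with the most summits, chromosome 5S, 45251675 to 45253946, had 12 summits over 2272 bp, a fold enrichment of 6.56 and a score of 617.

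Far regions were sparse as a group, and their spacing was uneven. The nearest other stage 12 region was a median of 18.5 kb away, against 1.98 kb for near and 4.49 kb for overlapping regions. The rule enters these distances, since it all but excludes regions that overlap stage 10 from the 20 kb around a far region. In 59.3% of far regions (Wilson interval 58.3% to 60.4%) the nearest stage 12 region was itself a far region. The rule largely fixes this share, since a region close to a far region can hardly overlap a stage 10 region. Of the 4566 far regions with any stage 12 region within 20 kb, 4095 had a far one there. Another far region lay within 1 kb of 19.2%, within 20 kb of 46.2% and within 200 kb of 82.7%. A stage 12 region of any kind lay within 1 kb of 19.5% of far, 40.7% of near and 34.8% of overlapping regions. The rule enters this contrast too. The quartiles of the distance to the nearest other far region were 2.93 and 135 kb, with a median of 27.8 kb.

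When far regions no more than 20 kb apart were joined, they formed 6359 runs. Of these, 4778 held 1 region, 1056 held 2 and 525 held 3 or more, with 1983 regions in the last group. Runs of 3 or more had a median length of 14.6 kb, and the longest run held 14 regions. Regions with a far neighbour within 20 kb (4095) were narrower than those without (4778), at a median of 448 against 565 bp. They had 1 summit more often, at 29.1% against 17.6%, and a higher background, at 9.19 against 5.99 reads. Their fold enrichment was lower, at 9.11 against 10.3, while their pileup was higher, at 92 against 73 reads. The part of the neighbours themselves in the background, and so in the fold, was not tested. The 1705 far regions with another within 1 kb had a median width of 378 bp and 1 summit in 38.4%.

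The stage 10 list left 13929 gaps with far territory in them, and 4709 of these gaps (33.8%) held at least 1 far region at stage 12. In 2658 gaps there was exactly 1, and the other 2051 gaps held 6215 far regions together. Gaps with 5 or more numbered 267 and held 1669. The median gap with a far region was 152.7 kb long, and the median gap without one was 81.1 kb. The share of gaps holding a far region rose with the length of their far territory, from 9.72% up to 20 kb to 65.4% over 360 kb. Density went the other way, from 13.4 to 2.76 far regions per Mb of far territory. A longer gap has more room to hold a region, so the rise in the share of gaps and the longer median gap are partly given by length. Nothing is read from them. By density, long gaps were more thinly filled. That is not separate from the fall of density with distance, since only long gaps hold the sequence farthest from stage 10.

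**Figure D4:**
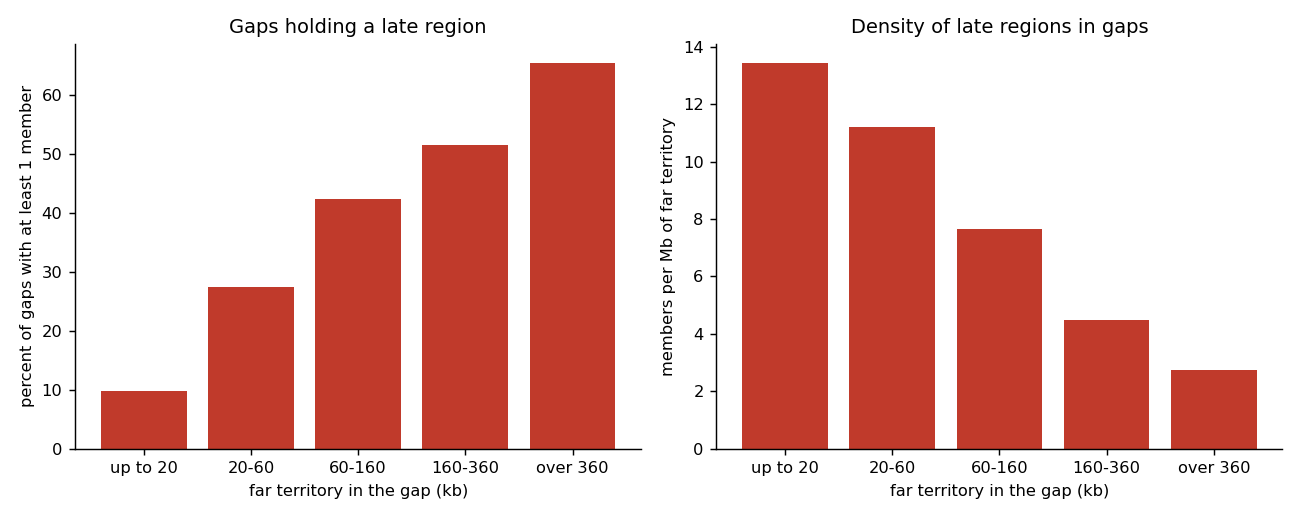
Gaps of the stage 10 list by the length of their far territory in kb. Left, the percent of gaps with at least 1 far region at stage 12, rising from 9.72% to 65.4%. Right, far regions per Mb of far territory, falling from 13.4 to 2.76.

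The gap with the most far regions was on chromosome 1S, 57462431 to 58660713, with 18 over 1198 kb. Of these, 14 formed a single run from 57570508 to 57615105, 44.6 kb long, and 11 of the 18 had the top score. The gap on chromosome 1L from 43751018 to 44032090 held 13, with a median fold enrichment of 7.67. On chromosome 4L, from 21762264 to 21939405, 12 far regions were packed into 36.9 kb of a 177.1 kb gap, with a median width of 281 bp and fold enrichments of 3.28 to 15.1. Gaps with 12 each were also found on chromosome 3L, 132157301 to 132347578, and chromosome 6L, 139449382 to 139773608. The median fold enrichments in these 5 gaps ran from 5.69 to 7.98, below the median of 9.81 for all far regions. One further run, singled out after its values were seen, lay on chromosome 8S from 43974544 to 44051255. It held 10 far regions in 76.7 kb, all 10 at the top score, with a median fold enrichment of 11.5.

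The longest gaps of the stage 10 list were not empty at stage 12. The same held for 65.4% of all gaps with more than 360 kb of far territory. The 5 longest ran from 1952 to 2661 kb, on chromosomes 8S, 3S, 1S, 4S and 4L, and held 3, 2, 10, 4 and 2 far regions in that order. These gaps were chosen by length and include the homes of all 5 most remote regions. Only a very long gap has room for a region so far from stage 10, so the choice by length largely fixes this.

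The genome of this frog arose by hybridization of different ancestral species, and it keeps both chromosome sets as 9 homeologous pairs, the L set being the longer and the S set the shorter. Gene loss and deletion have been more extensive on the S chromosomes. The L chromosomes held 5325 far regions and 53.4% of the far territory, and the S chromosomes held 3548. Density was 5.99 far regions per Mb of far territory on L and 4.58 on S. L was higher in 9 of 9 pairs, and the log2 ratio of the densities averaged 0.40 ± 0.15 (SD over 9 pairs). The lowest ratio was 0.16, in pair 2, where 2L had 5.11 and 2S had 4.57 far regions per Mb. The highest was 0.65, in pair 3, with 7.22 on 3L and 4.60 on 3S.

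The other stage 12 regions were also denser on L, at 57.0 against 51.8 per Mb of near territory, but with a mean log2 ratio of 0.13 ± 0.13 (SD over 9 pairs). With each group set against its own territory, the ratio was higher for far regions than for the others in 9 of 9 pairs, by 0.27 ± 0.13 (log2). The share of stage 12 regions that were far, which uses neither territory, was higher on L in only 5 of 9 pairs. Its mean log2 ratio was 0.06 ± 0.18 (SD over 9 pairs). Far and near territory are drawn from the stage 10 list, in which L chromosomes were the denser in 8 of 9 pairs, so the denominators of the ratios are not independent of the rule. No test was run, because chromosome pairs are not replicates of a stage. Pair 5 had nearly equal densities of other regions, with a log2 ratio of 0.02, and a ratio of 0.41 for far regions.

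The excess on L was present at each distance, and less evenly so where numbers were small. Between 20 and 50 kb from stage 10 the density was 9.68 per Mb on L and 7.40 on S, with L higher in 9 of 9 pairs. Between 50 and 100 kb it was 5.44 and 4.21, with L higher in 8 of 9. Between 100 and 200 kb it was 3.10 and 2.61, with L higher in 6 of 9. Beyond 200 kb it was 2.02 and 1.71, again with L higher in 6 of 9, from 256 and 202 regions.

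The regions themselves were much alike on L and S. Median width was 505 bp on L and 520 bp on S, and fold enrichment was 9.68 and 9.95. Median width was the lower on L in 8 of 9 pairs, with a mean log2 ratio of -0.03 ± 0.03 (SD over 9 pairs). The share with another far region within 20 kb was 48.2% on L and 43.1% on S, from 35.1% on 7S to 53.9% on 4L, and L was higher in 7 of 9 pairs. By chromosome, far regions made up between 13.6% of stage 12 regions on 8L and 18.6% on 4L.

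**Figure D5:**
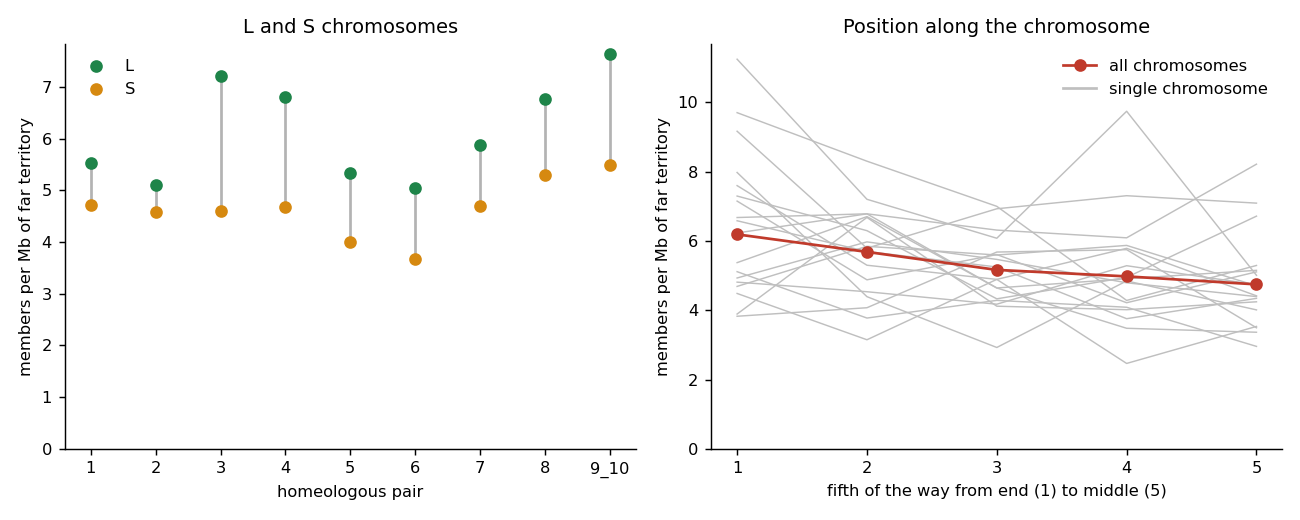
Left, far regions per Mb of far territory on the L and S chromosome of each homeologous pair, joined by a line; L is higher in 9 of 9 pairs. Right, the same density in 5 equal parts of the way from the chromosome end (1) to its middle (5), for all 18 chromosomes together and for each one; it falls from 6.19 to 4.75 per Mb over all chromosomes.

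Far regions were somewhat denser toward the chromosome ends over all chromosomes together, but not on each one. Centromeres are not in the files, so position was taken as the relative distance from the nearer end, in 5 equal parts. From the end inward the density was 6.19, 5.68, 5.16, 4.98 and 4.75 far regions per Mb of far territory. The outermost part exceeded the rest of the chromosome 1.21-fold over all chromosomes, and on 13 of 18 of them. It was the densest of the 5 parts on 9 of 18. Against the innermost part alone it was 1.30-fold denser, and higher on 15 of 18. The exceptions to the last were 8L, at 0.813, 3S, at 0.917, and 5L, at 0.997. The ratio reached 2.25 on 9_10L and 1.99 on 7S. Per Mb of near territory the other stage 12 regions also fell, from 59.96 to 50.5, a ratio of 1.19, on 18 of 18 chromosomes. Both territories come from the stage 10 list, and the far part of the sequence rose from 61.9% at the ends to 69.7% in the middle. In counts over parts of equal span, far regions fell from 1922 to 1658 and the others more steeply, from 11446 to 7683. Over all chromosomes together, far regions were thus a larger share of stage 12 regions in the middle than at the ends, but not on each one. With all chromosomes pooled, the median width of far regions fell from end to middle, from 535.5 to 491 bp, while their fold enrichment rose from 9.47 to 10.1.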

How the data were processed

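Data are 6 ATAC-seq libraries, 3 per stage, read as paired ends of 100 nucleotides per the labels' protocols, with 1 deposited list per stage of 10 columns and no header. The submitters' processing notes name bcl2fastq 2.20 and the build xenLae2. The aligner, peak caller, filters and pooling of replicates are not given in the sources used here. The column order is that of narrowPeak: the deposited score is a whole number, the deposited fold enrichment is a ratio of pileup to background, each plus 1, and the deposited −log10 p behaves as a Poisson upper tail of the same pileup. A further deposited column was the summit offset, and the deposited −log10 q was not used.

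Rows that share an interval were treated as the summits of 1 region, which took the values of its summit with the highest −log10 p. Distance is the number of bases between edges. Far territory is all sequence more than 20 kb from any stage 10 region, up to the last listed region of a chromosome. A pileup and background were solved within a misfit of 0.01 for 99.95% of stage 10 and 99.93% of stage 12 summits, and the closest solution was used for all. Distances, territory and solving were tested on simulated data. No annotation, gene table or sequence was used. Named regions are the 10 with the highest −log10 p, the 5 most remote, the 5 gaps with the most far regions, 2 on each side of the limit, the widest and the one with the most summits. The members and rules were chosen with earlier results of these data known. Intervals cover counting error only. Python 3.11.15, numpy 2.4.6, pandas 2.3.3, scipy 1.17.1 and matplotlib 3.10.9 were used.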

Additional observations from a re-analysis of the deposited data

Results flagged for a closer look

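Unplaced scaffolds, which the comparisons above leave out, also carried signal. Of 6004 stage 12 regions on them, 809 lay on 772 scaffolds with no stage 10 region at all. The distance rule has no value for these. Their median fold enrichment was 11.4, their median width was 461 bp, and 49.9% had the top score. A further 510 lay more than 20 kb from a stage 10 region of their own scaffold.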

How the results depend on the processing

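No paired analysis was possible because the lists combine the libraries of a stage and carry no replicate number, and no replicate could be left out. The alternatives gave 93 values, of which 59 stayed within their limits, 25 moved and 9 changed direction. The limit was 1.5 times for the number of far regions and 1 SD over chromosomes or pairs otherwise. The cause of the shifts below was not tested. Ratios are far regions over the other stage 12 regions.

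Their number, 8873, was 3776 at a limit of 50 kb and 1496 at 100 kb, 1915 in the upper 50% of stage 12, 4621 with equal numbers, 4867 at the top score and 18734 against the upper 50% of stage 10. The ratio of median widths, 0.875, was 0.837 at 10 kb, 0.902 at 50 kb, 0.842 in the upper 50% of stage 12, 0.849 at the top score and 0.923 against the upper 50% of stage 10. It changed direction to 1.31 against near regions alone and to 1.14 within bands of −log10 p. Values within bands are medians of 10 band ratios, which for width ran from 0.688 to 1.34, with 6 of 10 above 1. The ratio of single-summit shares, 1.13, was 1.03 with equal numbers, and changed direction to 0.698 within bands and 0.669 against near regions. Its band ratios ran from 0.575 to 3.35, with 2 of 10 above 1. The ratio of median folds, 0.954, changed direction to 1.0063 at 100 kb, 1.0063 in the upper 50% of stage 12, 1.28 within bands and 1.29 against near regions.

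The ratio of median distances to the nearest other stage 12 region was 5.74, and the rule enters it. It was 7.80 at 50 kb, 9.46 at 100 kb, 2.86 in the upper 50% of stage 12 and 4.14 against the upper 50% of stage 10. Taken over near regions alone it was 9.32. The share with another far region in the window, 46.2%, was 41.1% at a limit of 50 kb, 40.2% at 100 kb, 22.5% in the upper 50% of stage 12, 35.1% with equal numbers, 36.0% at the top score and 58.7% against the upper 50% of stage 10. It was 37.2% and 57.1% with windows of 10 and 50 kb. The log2 of L over S density, averaged over pairs, was 0.40 and stayed between 0.28 and 0.44. The lowest value was at a limit of 100 kb, where L was higher in 6 of 9 pairs. The density of the outermost part over the rest, 1.21 over all chromosomes together, changed direction to 0.988 at a limit of 100 kb. By chromosome, the outermost part was still the denser on 13 of 18 at that limit. The comparison with near regions alone, and folds within bands, were chosen after the data were seen.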
